A study of Homo sapiens with 6 samples.

Results

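The transcripts described here encode the splicing machinery and the hnRNP proteins, and they were followed in RNA that came down with the double-stranded RNA-binding protein Stau1 from mitotic cells. They were taken from the array by the start of their gene symbol, which is HNRNP, HNRP, SFRS, SNRP, PRPF, SF3A or SF3B. This gave 83 of the 37879 targets of the array, namely 27 hnRNP, 21 SFRS, 13 SNRP, 9 SF3 and 13 PRPF targets. The symbols are those of the array and partly old, and all 83 have a current symbol in RefSeq, so that SFRS1 is now SRSF1, SFRS12 is SREK1, SF3B14 is SF3B6 and SNRP70 is SNRNP70.

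Splicing removes introns from pre-mRNA and is carried out by the spliceosome, in which small nuclear RNAs are held in particles with proteins. The Sm proteins (SNRPB, SNRPD1, SNRPD2, SNRPD3, SNRPE, SNRPF and SNRPG) form a ring around most of these RNAs, while the SF3A and SF3B subunits belong to the U2 particle that recognizes the branch point and the PRPF proteins act largely in the U4/U6 and U5 particles and in the catalytic steps. SR proteins (mostly the SFRS genes) bind exonic sequences and usually favour the use of an exon, and hnRNP proteins coat nascent transcripts and often act against it. Many genes of SR and hnRNP proteins control their own mRNA through alternative exons that lead to decay.

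HEK293T, an established human embryonic kidney line, was used for all 6 arrays, and all cells had received 50 ng/ml nocodazole, a microtubule poison that holds them in prometaphase, for 15 h by the labels (the methods give another duration). The 3 control IPs came from cells with the empty vector. The 3 Stau1 IPs came from cells with a plasmid for the 55 kDa isoform of Stau1 carrying a FLAG tag. The protein brought down was thus a tagged copy added to the endogenous one, and the paper reports that this copy was the less abundant of them. The same anti-FLAG antibody was used for both groups, and nothing in the labels says that replicates came from separate cultures, so p-values measure the spread between these arrays, which may be technical. After normalization between arrays, a signal tells how much of a transcript came down relative to the other transcripts on its array. A lower value therefore need not mean that less of the transcript was recovered. Without total RNA, which was not used here, a larger amount in the cells and a larger bound share cannot be told apart.

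Detection means a detection p under 0.05, the rank of a signal among the negative controls of its array. Between 11635 and 13054 targets and between 69 and 72 of the 83 members reached it on an array, at a median of 41 beads per target. Of 7 markers of the line, 6 were detected on all 6 arrays and PAX2 on 1, and of the markers of other cell types given here, INS was detected on 4 arrays, GFAP on 1 and 5 on none. STAU1 itself differed by -0.17 between the groups (log2, standard error 0.16, adjusted p = 0.867 from limma). Stau1 IP 2 stood apart from the other arrays of its group, and control IP 2 was as close to Stau1 IP arrays as to its own group. Over the 9884 targets detected on all 6 arrays, Stau1 IP 2 correlated at 0.937 and 0.939 with Stau1 IP 1 and 3 but at 0.971 with control IP 3, and control IP 2 correlated at 0.982 and 0.983 with Stau1 IP 1 and 3 and at 0.975 and 0.980 with control IP 1 and 3, which correlated at 0.981 with each other. The same held over the 66 members detected on all arrays, where the correlation of Stau1 IP 1 with 3 was 0.994 and with 2 was 0.927 (targets are not independent replicates). Whether these arrays carry the right label was not tested, and each result is therefore given by the labels, with 3 against 3 arrays, and again without both arrays numbered 2, with 2 against 2, where the arrays numbered 2 are shown singly.

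Most of the members gave a clear signal. Of the 83, 66 were detected on all 6 arrays, 5 on 5 arrays, 3 on 1 array and 9 on none, so that 71 passed the filter of 3 arrays, and none of these 71 was detected in 1 group alone. They were 24 hnRNP, 18 SFRS, 11 SNRP, 9 SF3 and 9 PRPF targets. The 71 lay at a median percentile of 95.5 in the mean signal of all targets, which tells how bright a probe is and not how abundant its transcript. SNRP70, the U1 protein that binds the first stem loop of U1 RNA, and SNRPN, the Sm protein typical of neurons, were detected on no array, and no fold is given for them. A miss can also arise for a bright target. HNRPUL2 had raw signals of 272 to 474 and was detected on no array. Of the 65 members with a process annotation in the file, 45 (69.2%) carried a splicing term, against 1.07% of all 13197 annotated targets.

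With the arrays grouped by their labels, no splicing factor or hnRNP transcript was enriched or depleted at the threshold of the methods, a fold above 2.5 with an unadjusted p under 0.05. The differences that came nearest were lower signals in the Stau1 IPs for proteins of the core particles, SNRPG, SNRPD1, SNRPB2 and SNRPA1, and for SFRS12. Enrichment was found for 0 of 83 members and 0.0264% of all targets, and depletion for 0 of 83 and 0.0317%. After Benjamini-Hochberg adjustment in limma, 0 members passed at any fold, as did 0% of all targets in each direction, and the methods' t-test also gave 0 after adjustment. At an unadjusted p under 0.05, 18 of 83 members were lower in the Stau1 IPs (21.7%, against 5.16% of all targets) and 1 was higher (1.2%, against 4.45%). The lower ones that were not detected on 3 arrays included the kinase PRPF4B and SFRS2IP, a partner of SFRS2.

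The shares were also read against targets of similar signal. Among detected targets, 15 of 71 members were lower (21.1%) and 1 higher (1.41%), against 11.4% and 9.52% of all detected targets. Among targets in the top 10% of mean signal, 8 of 44 members were lower (18.2%), against 13.5% of all such targets, and 1 was higher (2.27%, against 9.74%). The Stau1 IP arrays lay below all control IP arrays for 15 of the 71 (21.1%, against 12.2% of detected targets) and above them for 0 (against 9.51%). The median log2 difference of the 71 was -0.26, with 76.1% below 0, beside -0.0003 and 50% for all detected targets. In the top 10% of mean signal the contrast was smaller, with medians of -0.20 for the 44 members and -0.04 for all such targets. The medians of the classes were alike, at -0.23 for hnRNP, -0.23 for SFRS, -0.28 for SNRP, -0.26 for SF3 and -0.33 for PRPF.

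**Figure D1:**
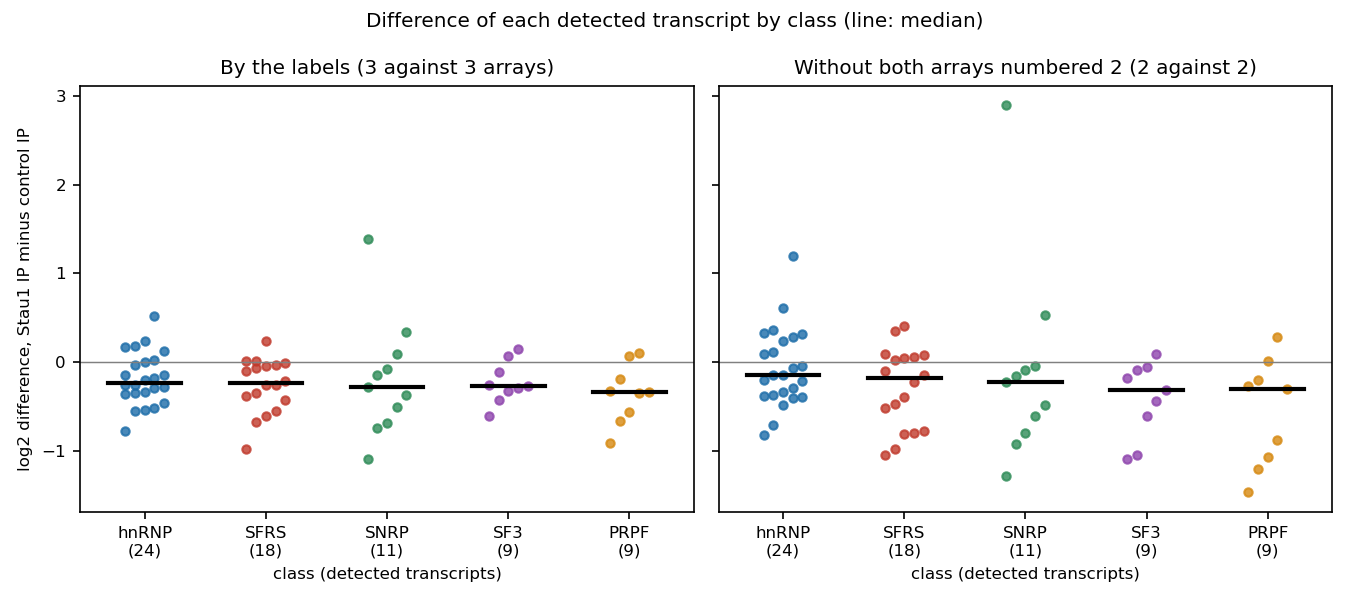
The log2 difference between Stau1 IPs and control IPs (vertical axis) of each detected transcript, 1 point each, by class (horizontal axis), with the median as a line. The left panel uses the arrays by their labels, with class medians from -0.33 to -0.23, and the right panel leaves out both arrays numbered 2, where SNRPD3 stands alone at 2.89.

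Among the transcripts of the Sm proteins, the differences by the labels had both signs, and none passed the adjustment. In what follows, values are normalized log2 signals, with the arrays of a group in the order of their replicate numbers and the control IPs first. SNRPG, the Sm protein G, had 14.71, 14.47 and 14.43 in control IPs and 13.89, 14.00 and 13.67 in Stau1 IPs. All Stau1 arrays were lower than all control arrays, the array numbered 2 included, with means of 14.54 ± 0.15 and 13.85 ± 0.17 (SD, n = 3). The difference was -0.69 (standard error 0.12, adjusted p = 0.215 from limma). Groups of 3 that do not overlap give p = 0.1 by the exact two-sided permutation test, the smallest value that 3 against 3 arrays allow.

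SNRPD1, the Sm protein D1, had 9.78, 8.94 and 9.17 in control IPs and 8.22, 8.25 and 8.17 in Stau1 IPs. The Stau1 arrays were close together and below every control array, of which the first was the highest. This was the largest decrease among detected members, -1.08 (standard error 0.22, adjusted p = 0.230 from limma). SNRPD2, which pairs with D1 in the ring, had 14.33, 14.54 and 14.46 against 14.40, 14.50 and 14.24. Its groups overlapped, and the difference of -0.07 had a 95% interval from -0.32 to 0.18.

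SNRPD3, the Sm protein D3, was the member with the largest increase and the one on which the arrays numbered 2 counted most. The raw signal stood at 216, 985 and 285 in the control IPs and at 1584, 274 and 1709 in the Stau1 IPs. On the log2 scale these were 7.42, 9.66 and 7.86 against 10.54, 8.05 and 10.52. Stau1 IP 1 and 3 were the highest and nearly equal, control IP 2 came next, and Stau1 IP 2 lay with control IP 1 and 3. By the labels the difference was 1.39 (standard error 0.87, adjusted p = 0.740 from limma), within the spread of the arrays. Without both arrays numbered 2 it was 2.89 (standard error 0.17, adjusted p = 0.00643 from limma), a fold of 7.42, which ranked 46 among the rises of all 37879 targets.

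SNRPB, which encodes the Sm proteins B and B', pairs with D3 and was the 1 member higher by the labels at an unadjusted p under 0.05. It had 13.51, 13.67 and 13.58 in control IPs and 14.06, 13.64 and 14.09 in Stau1 IPs. Stau1 IP 1 and 3 were above all control arrays and Stau1 IP 2 lay among them. The difference was 0.34 by the labels (standard error 0.14, adjusted p = 0.509 from limma) and 0.53 without both arrays numbered 2 (standard error 0.10, adjusted p = 0.0524 from limma). By the labels its unadjusted p was under 0.05 in 6 of 17 alternative settings.

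SNRPE and SNRPF, the remaining Sm proteins of the ring, differed by -0.14 and -0.37 by the labels and did not pass the unadjusted threshold in either fit. SNRPE had raw signals of 96 to 121, near the negative-control means of 78 to 90, so a fall could hardly show. SNRPB2 and SNRPA1, which are specific to the U2 particle, were lower by the labels at an unadjusted p under 0.05. SNRPB2, a U2 protein that binds a stem loop of U2 RNA, had 12.92, 12.48 and 12.65 in control IPs and 11.88, 12.11 and 11.85 in Stau1 IPs. The groups did not overlap, and the difference was -0.74 (standard error 0.14, adjusted p = 0.228 from limma). Its partner SNRPA1 had 12.47, 12.35 and 12.22 against 11.91, 11.80 and 11.83, again without overlap, a difference of -0.50 (standard error 0.09, adjusted p = 0.216 from limma).

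The U1 proteins did not separate the groups by the labels. SNRPA, the U1 protein A and a close relative of SNRPB2, had 11.85, 11.69 and 11.82 against 11.40, 12.44 and 11.81, with Stau1 IP 1 the lowest and Stau1 IP 2 the highest of all arrays. SNRPC, which helps U1 to recognize the 5' splice site, had 12.68, 12.31 and 12.43 against 11.90, 12.70 and 12.00. For SNRPC, unlike SNRPA, Stau1 IP 2 lay with the control arrays and the other Stau1 arrays lay below them.

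**Figure D2:**
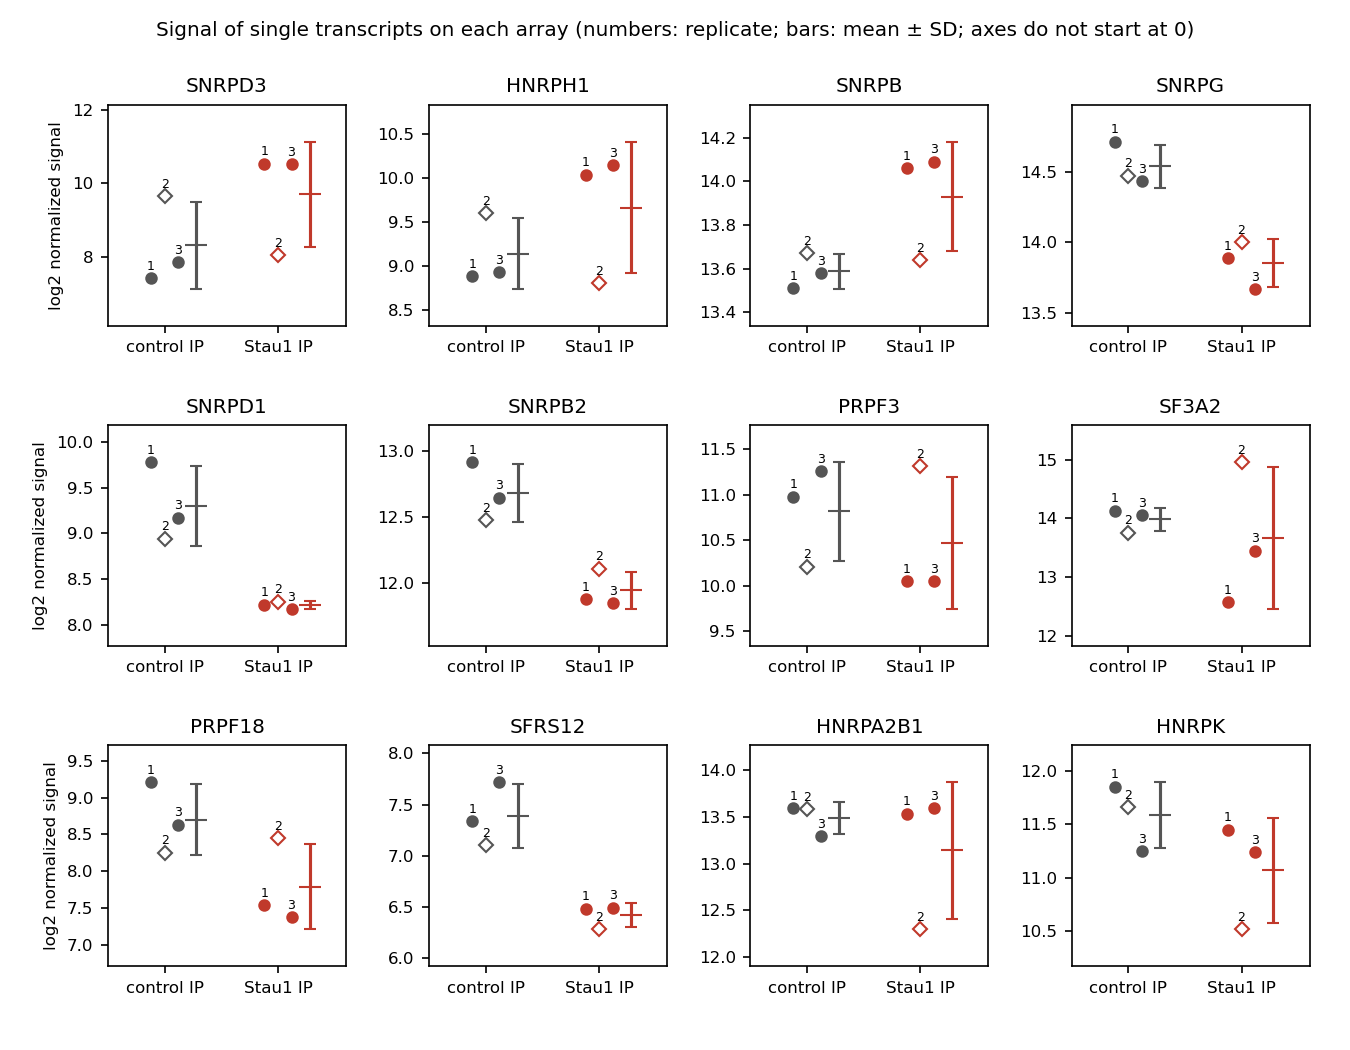
Normalized log2 signal (vertical axes, which do not start at 0) of 12 transcripts on each array, by group (horizontal axes). Points carry the replicate number, open diamonds are the arrays numbered 2, and bars are the mean ± SD of 3 arrays. For SNRPG, SNRPD1, SNRPB2 and SFRS12 all Stau1 IP arrays lie below the control IP arrays, while for SNRPD3 and PRPF3 the arrays numbered 2 lie nearer to the other group.

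Of the 9 U2 subunits of the SF3 class, 3 were lower by the labels at an unadjusted p under 0.05, beside 11.4% of all detected targets, and 0 higher, beside 9.52%. SF3B14, which touches the branch-point adenosine, had 14.24, 13.83 and 13.76 in control IPs and 13.32, 13.22 and 13.48 in Stau1 IPs. No Stau1 array reached the lowest control array, and the difference was -0.60 (standard error 0.15, adjusted p = 0.285 from limma). SF3A3, a subunit of the SF3A trimer, differed by less but with closer arrays, 12.70, 12.77 and 12.79 against 12.48, 12.52 and 12.40, a difference of -0.29 (standard error 0.07, adjusted p = 0.298 from limma). SF3A1, which holds the SF3A trimer together, differed by -0.25 (adjusted p = 0.497 from limma).

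For SF3B1, the large subunit that grips the branch helix, the groups overlapped. Its 9.36, 9.12 and 8.88 against 8.99, 8.44 and 9.15 left Stau1 IP 2 as the lowest array, and the difference was -0.26 by the labels and -0.05 without both arrays numbered 2. SF3A2, a zinc finger subunit of SF3A, spread widely in the Stau1 IPs, with 14.13, 13.76 and 14.06 against 12.58, 14.96 and 13.45. Stau1 IP 1 was its lowest array and Stau1 IP 2 its highest. The difference was -0.32 by the labels (standard error 0.58, adjusted p = 0.946 from limma) and -1.08 without both arrays numbered 2 (standard error 0.29, adjusted p = 0.117 from limma).

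Among the PRPF transcripts, PRPF18, a factor of the later catalytic step, had 9.21, 8.25 and 8.63 in control IPs and 7.54, 8.45 and 7.38 in Stau1 IPs. Stau1 IP 1 and 3 were the lowest arrays, and Stau1 IP 2 lay between the control arrays. The difference was -0.91 by the labels (standard error 0.36, adjusted p = 0.503 from limma) and -1.46 without both arrays numbered 2 (standard error 0.21, adjusted p = 0.0276 from limma), where it was the 1 depleted member, at 2.75-fold.

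PRPF3, a protein of the U4/U6 particle, had 10.98, 10.21 and 11.26 against 10.05, 11.31 and 10.05. Its control IP 2 lay next to Stau1 IP 1 and 3, and its Stau1 IP 2 was the highest of all arrays. PRPF31, also of U4/U6, had 12.39, 11.93 and 12.36 against 11.46, 12.70 and 11.54, again with Stau1 IP 2 the highest of all and control IP 2 the lowest of the control arrays. PRPF38A, which joins before activation of the spliceosome, had 9.87, 9.09 and 9.54 against 8.51, 9.80 and 8.51, with Stau1 IP 2 second only to control IP 1. These 3 transcripts differed by -0.35, -0.33 and -0.56 by the labels and by -1.07, -0.87 and -1.19 without both arrays numbered 2.

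PRPF8, the scaffold of the catalytic centre, did not separate the groups, with 11.13, 11.32 and 10.90 against 10.41, 11.15 and 11.22. Nor did PRPF19, a ubiquitin ligase of the complex that bears its name, with a difference of 0.07 and a 95% interval from -0.40 to 0.54.

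Of the SR proteins, SFRS12, which regulates splice site choice together with other SR proteins, had the largest difference. Its values were 7.34, 7.10 and 7.72 in control IPs and 6.48, 6.28 and 6.49 in Stau1 IPs. All Stau1 arrays were lower, and the lowest, Stau1 IP 2, was the 1 array on which it was not detected. The difference was -0.97 by the labels (standard error 0.17, adjusted p = 0.209 from limma) and -1.05 without both arrays numbered 2 (standard error 0.16, adjusted p = 0.0294 from limma). SFRS11, a related protein with an arginine and serine-rich domain, and SFRS7, an SR protein that also acts in mRNA export, were lower at an unadjusted p under 0.05, with differences of -0.60 and -0.67, and their groups did not overlap.

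For SFRS1, SFRS2, SFRS9 and SFRS3 the groups overlapped. SFRS1, an SR protein that favours the use of nearby splice sites, had 12.67, 13.17 and 12.83 against 12.99, 12.53 and 13.22, a difference of 0.02 with a 95% interval from -0.50 to 0.54. SFRS2, which marks nuclear speckles, differed by -0.06 (95% interval from -0.35 to 0.23). SFRS9 hardly varied, with 14.21, 14.21 and 14.15 against 14.22, 14.13 and 14.19. SFRS3, the smallest of the family, had 9.43, 9.48 and 9.07 against 9.41, 8.23 and 9.21, and only Stau1 IP 2 was low. SFRS17A, a splicing regulator that also anchors a kinase, differed by 0.24 by the labels and by 0.41 without both arrays numbered 2 (adjusted p = 0.138 from limma).

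In the hnRNP class, HNRPH1, which binds runs of G, was the highest relative to control and behaved like SNRPD3. It had 8.88, 9.60 and 8.93 in control IPs and 10.04, 8.80 and 10.15 in Stau1 IPs. Stau1 IP 1 and 3 were highest, control IP 2 came next and Stau1 IP 2 was the lowest of all. The difference was 0.53 by the labels (standard error 0.40, adjusted p = 0.813 from limma) and 1.19 without both arrays numbered 2 (standard error 0.11, adjusted p = 0.0123 from limma). Its relative HNRPH3 did not share this, with 7.42, 7.41 and 7.14 against 6.91, 5.91 and 6.84. All its Stau1 arrays were lower and Stau1 IP 2 was far below the rest, which gave -0.77 by the labels (adjusted p = 0.457 from limma) and -0.40 without both arrays numbered 2.

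HNRNPC and HNRPC are 2 targets of 1 gene, whose protein binds U-rich tracts, and both were lower by the labels. HNRNPC had 11.28, 11.21 and 11.24 against 11.01, 10.25 and 10.85, and HNRPC had 11.81, 11.46 and 11.41 against 11.11, 11.35 and 11.15. In both the groups did not overlap, but Stau1 IP 2 was by far the lowest in HNRNPC and the highest of the Stau1 arrays in HNRPC. The differences were -0.54 and -0.36 (adjusted p = 0.465 and 0.467 from limma). HNRNPUL2 and HNRPUL2, also of 1 gene, differed by 0.18 and 0.03.

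The major shuttling hnRNP proteins gave no difference beyond the spread between arrays. HNRNPA1 had 9.35, 8.96 and 8.41 against 8.44, 8.32 and 8.60, with control IP 1 and 2 above the rest. HNRPA2B1, its close relative, had 13.59, 13.58 and 13.29 against 13.53, 12.30 and 13.59. HNRPK, which binds C-rich sequences, had 11.85, 11.66 and 11.25 against 11.45, 10.52 and 11.24. In the last pair Stau1 IP 2 was the lowest array by a wide margin, and without both arrays numbered 2 the differences were 0.12 and -0.21. HNRNPU, a nuclear scaffold protein, differed by 0.24 (95% interval from -0.12 to 0.61). HNRNPL, which binds CA repeats, differed by 0.17, and HNRNPAB and HNRNPA0 by 0.03 and 0.01. HNRPA1L-2 and HNRPA1P4, which are copies of the A1 gene and may share its signal, are uncertain, and they differed by -0.28 and -0.20. For HNRPA1P4 the groups did not overlap, though only just, with 13.45, 13.31 and 13.34 against 12.94, 13.30 and 13.27. Without both arrays numbered 2, HNRPA1L-2 differed by -0.71 (adjusted p = 0.0469 from limma). Both were brighter than the HNRNPA1 target.

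**Figure D3:**
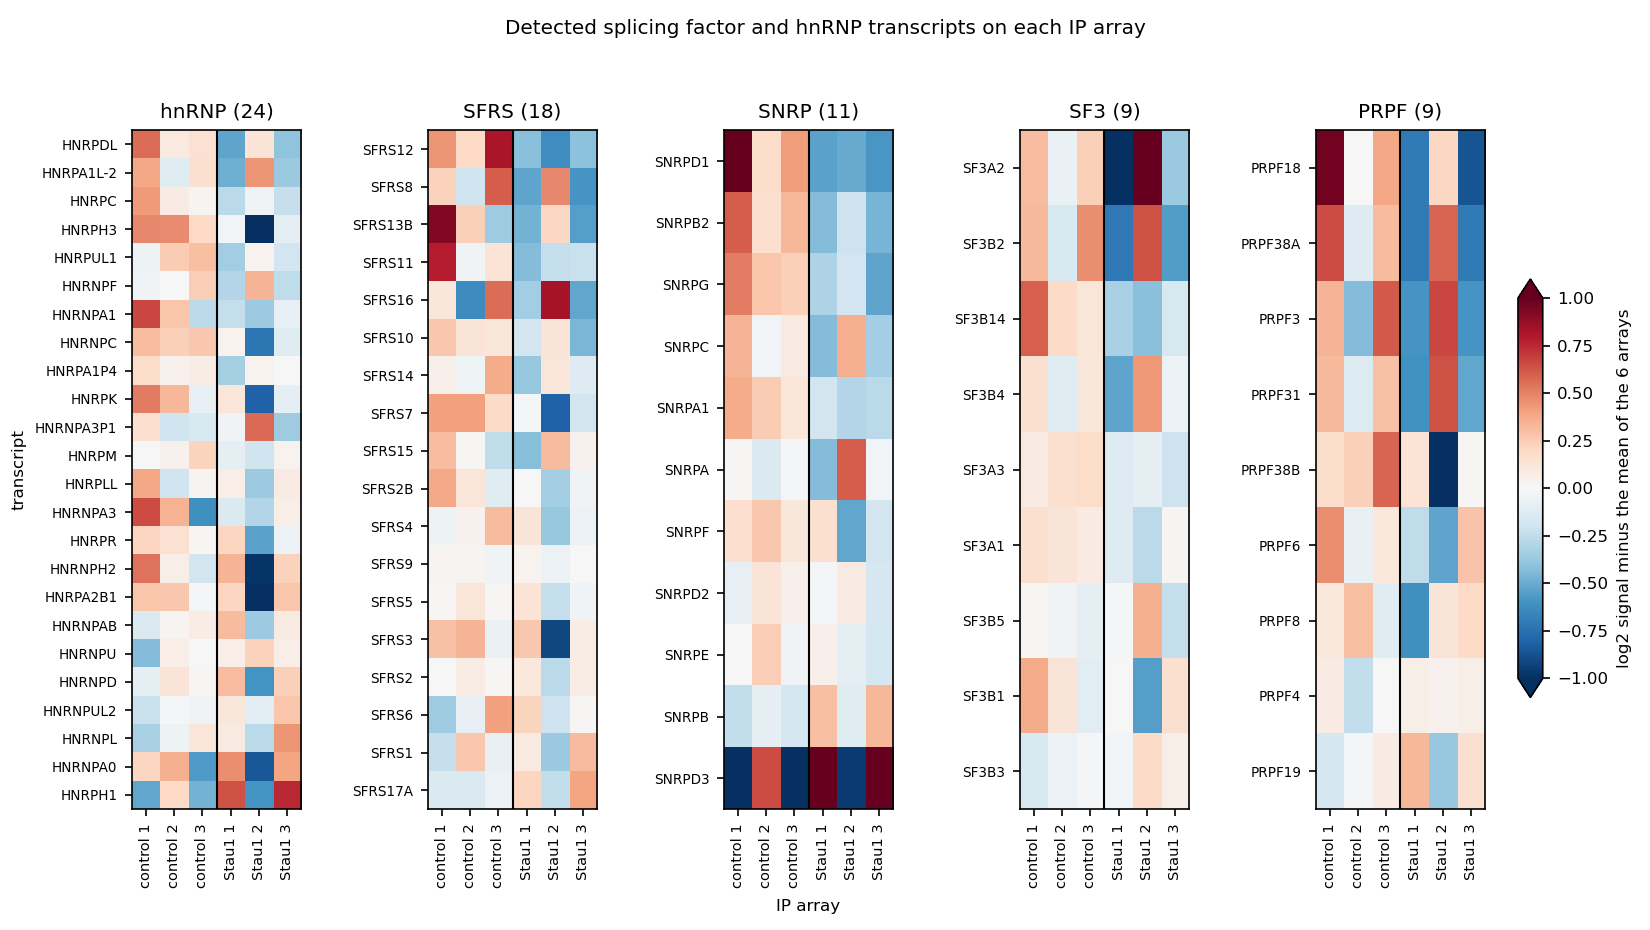
Normalized log2 signal of the 71 detected transcripts on each of the 6 arrays (horizontal axes), as the difference from the mean of the 6 arrays (colour, blue lower and red higher), by class and ordered by the difference without both arrays numbered 2. The line parts control IPs from Stau1 IPs, and the column of Stau1 IP 2 is often unlike those of Stau1 IP 1 and 3, as for SNRPD3 (bottom of the SNRP panel) and PRPF3.

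Without both arrays numbered 2, the number of differences grew for the members and for all targets alike. These arrays were left out because earlier results of these data set them apart, so this comparison holds less of the spread between arrays than the labels give. SNRPD3 was the 1 enriched member of 83 (1.2%, against 1.21% of all targets), and PRPF18 the 1 depleted (1.2%, against 0.285%). After Benjamini-Hochberg adjustment in limma, SNRPD3 and HNRPH1 rose (2.41%, against 3.3% of all targets) and 11 members fell (13.3%, against 2.47%). Those that fell among the detected members were PRPF3, PRPF18, PRPF31, PRPF38A, SF3B2, SFRS8, SFRS12, SNRPB2, SNRPD1 and HNRPA1L-2. SF3B2 is a subunit of the U2 particle, and SFRS8 is a splicing regulator first known from the fly.

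Read against detected targets only, 2.82% of the 71 rose and 14.1% fell, beside 8.9% and 6.81% of detected targets. In the top 10% of mean signal 5 of 44 members fell (11.4%), beside 9.98% of such targets, and 0 rose, beside 10.1%. At an unadjusted p under 0.05, 26 of the 71 were lower (36.6%, against 24.1%) and 7 higher (9.86%, against 21.1%). The median difference of the 71 was -0.21, beside -0.05 for all detected targets. For the 44 members in the top 10% of mean signal it was -0.18, beside -0.08 for all such targets. The adjusted calls depended on the test, as no member and no other target passed with the methods' t-test. When a further array was left out, its group held a single array and the spread came from the other group alone. Such fits cannot show which arrays the calls rested on.

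The 7 higher members were SNRPD3, SNRPB, HNRPH1, HNRNPD, HNRNPUL2, SFRS1 and SFRS17A. On the arrays numbered 2 taken singly, Stau1 IP 2 lay nearer to the other control arrays than to the other Stau1 arrays for all 7, beside 70.2% of detected targets that were higher. Control IP 2 lay nearer to the Stau1 arrays for 4 of them (57.1%, beside 54%). The difference between Stau1 IP 2 and control IP 2 had the opposite sign for all 7, beside 67.8%. It was -1.60 for SNRPD3 and -0.80 for HNRPH1, and -0.02 for SNRPB, where these arrays hardly differed.

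The 26 lower members split. For 13 of them (50%, beside 61.7% of the detected targets that were lower) the arrays numbered 2 differed in the opposite direction, as they did for PRPF3 (1.10), SF3A2 (1.20), SF3B2 (0.79) and PRPF38A (0.72). For the others they differed the same way, as for SNRPD1 (-0.69), SFRS12 (-0.81), SF3B14 (-0.61), SNRPG (-0.48) and SNRPB2 (-0.37). SNRPG, SNRPD1, SNRPB2 and SFRS12 kept an unadjusted p under 0.05 in all 17 alternative settings of the comparison by the labels. The size held for SNRPG (-0.80 to -0.59) and SNRPB2 (-0.92 to -0.62), but with limma's own reading of the negative controls it was -0.084 for SFRS12 and -0.41 for SNRPD1. SFRS12 also came to -0.38 with the variance stabilizing transformation and robust spline and to -0.62 without background correction.

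**Figure D4:**
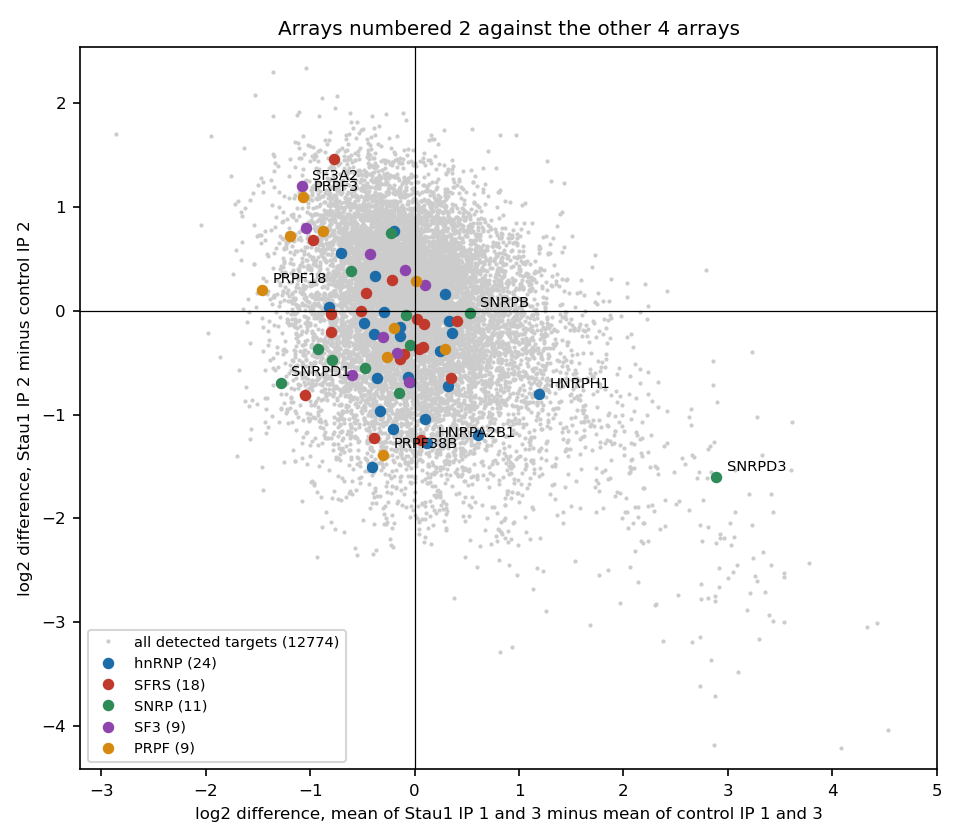
The log2 difference between Stau1 IP 2 and control IP 2 (vertical axis) against the log2 difference between the means of Stau1 IP 1 and 3 and of control IP 1 and 3 (horizontal axis), for the 71 detected members (coloured by class) and all 12774 detected targets (grey). SNRPD3 lies at 2.89 and -1.60 and PRPF3 at -1.07 and 1.10, in opposite directions on the arrays numbered 2, whereas SNRPD1 lies at -1.28 and -0.69.

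Stau1 IP 2 was the lowest array for 43.7% of the 71 members, beside 25.1% of detected targets, and control IP 1 was the highest for 39.4%, beside 21.4%. For 8 members (11.3%, beside 8.2% of detected targets) Stau1 IP 2 lay over 0.5 below each of the other 5 arrays. These were HNRNPC, HNRNPH2, HNRPA2B1, HNRPH3, HNRPK, SFRS3, SFRS7 and PRPF38B. Of these 8, 5 were hnRNP transcripts, a class that held 24 of the 71 members. The gap was widest for PRPF38B at 1.17. It was over 0.5 above all others for SF3A2 and SNRPA (2.82%, beside 6.05%). By class, the median deviation of Stau1 IP 2 from the average of the 6 arrays was -0.33 for hnRNP, -0.24 for SFRS and -0.20 for SNRP. It was 0.19 for SF3 and 0.13 for PRPF, beside 0.03 for all detected targets. For SNRP, Stau1 IP 1 and 3 deviated alike, at -0.19 and -0.18. For PRPF other arrays deviated more, at -0.59 for Stau1 IP 1, 0.32 for control IP 1 and 0.30 for control IP 3. The cause of these deviations was not tested.

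Other genes of the splicing pathway, whose symbols start differently, were read from a list of 98, of which 91 were on the array and 88 detected. By the labels, 20 were lower and 1 higher at an unadjusted p under 0.05 (11.4% and 9.52% of all detected targets were), with a median of -0.19, and 0 passed the adjustment. Among the 8 LSM proteins, which form a ring like that of the Sm proteins, 4 were lower (LSM1, LSM3, LSM5 and LSM8, by -0.50, -0.66, -0.67 and -0.66), beside 11.4% of all detected targets, and the median was -0.58. LSM3 had 14.34, 14.02 and 13.92 in control IPs and 13.30, 13.55 and 13.45 in Stau1 IPs, without overlap. Of the 6 kinases that phosphorylate SR proteins, SRPK1, SRPK2, CLK1 and CLK4 were lower, with differences from -0.78 to -0.54.

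SMNDC1, a splicing factor related to SMN, had 11.40, 11.07 and 11.42 in control IPs and 10.33, 10.54 and 10.19 in Stau1 IPs. Its arrays were far apart between the groups and close within them, with a difference of -0.94 (adjusted p = 0.192 from limma). SRRM1, a coactivator rich in serine and arginine, had 11.73, 11.69 and 11.97 against 10.52, 11.15 and 10.91, a difference of -0.94 (adjusted p = 0.228 from limma). Without both arrays numbered 2, 1 gene of the list rose and 11 fell after adjustment, as did 8.9% and 6.81% of all detected targets. The gene that rose was PHF5A, a small subunit of SF3B, by 1.10 (adjusted p = 0.0178 from limma), and its Stau1 IP 2 lay at 10.96, among control values of 10.85, 11.42 and 11.10.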

How the data were processed

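RNA from 3 control IPs and 3 Stau1 IPs was measured on Illumina HumanWG-6 arrays. The authors deposited the mean bead signal, an intensity without background subtraction or normalization, with its standard error between beads, a bead number and a detection p-value for 37879 targets, the probes of a target already combined. Per the labels, samples fall into the 2 groups used here.

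Intensities were corrected by normexp with the mean and SD of the negative controls, read from the 200 targets nearest each of a few detection p-values, raised by an offset of 16, quantile-normalized over the 6 arrays and set on the log2 scale. Limma's own reading of the negative controls gave an SD of 460 to 608, because bright targets can carry a high detection p, where the reading used gave 10.4 to 11.5. The change was made after results with limma's reading had been seen, and that reading is kept as an alternative. The transformation and spline named in the methods were rebuilt as an alternative only.

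Groups were compared with lmFit and eBayes of limma 3.58.1 in R 4.3.3 over all targets, with the replicate number left out, and p-values were adjusted by Benjamini-Hochberg over all targets. Processing settings, except limma's own reading of the negative controls, were also run on simulated data with known changes. The signal spread was scaled down there and no array was made to deviate. That run therefore cannot show how the settings act on the arrays numbered 2. The members and lists were chosen with earlier results of these data known. Named are members past the threshold of the methods, the 6 largest rises and falls in each comparison, fixed members with a known role and the member with the highest signal per class; PRPF31, SF3A3, SF3B2, SF3B14, SFRS7, SFRS8, SFRS11, SNRPA, SNRPA1, SNRPC, the other members in counts of calls and the genes named from the pathway list were chosen after their values were seen. Same-numbered arrays deviated from their group means in opposite directions (correlations of -0.40, -0.73 and -0.39). These values cannot decide whether the numbers pair arrays. The deviations within a group depend on each other, and the labels of the arrays numbered 2 are uncertain. Total RNA was not analysed here, and a few genes that enter the counts are not reported here by name. The number of arrays limits the precision.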

Additional observations from a re-analysis of the deposited data

How the results depend on the processing

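By the labels, the numbers of members enriched and depleted were 0 and 0. Without both arrays numbered 2 they were 1 and 1, at a fold of 2 they were 0 and 1, and leaving out single arrays gave 0 to 1 enriched, the 1 being SNRPD3 without Stau1 IP 2, and 0 to 0 depleted. The 1 member higher at an unadjusted p became 0 without between-array normalization, with median centring, with limma's own reading of the negative controls, among detected targets only, with the methods' t-test and with the replicate number as a block, and it became 7 without both arrays numbered 2. Leaving out single arrays gave 0 to 6, with 6 without Stau1 IP 2. The 18 lower members became 11 among detected targets only, 9 with the methods' t-test, 13 with the replicate block and 31 without both arrays numbered 2, and 11 to 28 when single arrays were left out, with 11 without control IP 1 and 28 without Stau1 IP 2. The median of -0.26 over the 71 detected members became -0.092 with limma's own reading and -0.28 to -0.18 when single arrays were left out.

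Without both arrays numbered 2, the 1 enriched member became 2 at a fold of 2, without between-array normalization and with median centring. The 1 depleted member became 8 at a fold of 2 and 0 without background correction, with a normexp offset of 50, without between-array normalization, with median centring and with the variance stabilizing transformation and robust spline, and leaving out single arrays gave 0 to 5. The 7 higher members became 11 without between-array normalization, 3 among detected targets only and 3 to 13 when single arrays were left out. The 31 lower ones became 20 with limma's own reading, 14 with the methods' t-test and 18 to 34 when single arrays were left out. The median of -0.21 over the detected members became -0.057 without between-array normalization, -0.12 with median centring, -0.13 with limma's own reading and -0.31 to -0.15 when single arrays were left out. In the first of these settings the median of all detected targets moved from -0.05 to 0.17 and in the second to 0.10, and the members' median lay below it in both. Where an arm was left with 1 array, that array was assumed to vary like those of the other group. In every case the cause was not tested, other than that fewer targets or arrays were used where the setting says so. No difference of a named gene that had passed turned its sign. Limma's own reading was added after values had been seen, as was leaving out the 4 remaining arrays in turn.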
